A study of Mus musculus with 39 samples.

Results

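In cerebellar granule cell progenitors of mice at postnatal day 7 (P7), 1153 regions carried both H3K4me3 and H3K27me3 and were found with H3K27me3 alone in granule cells at P21. For each mark and stage, bases covered by peaks of at least 2 libraries were merged into consensus regions, and P7 H3K4me3 consensus regions that touched P7 H3K27me3 consensus were taken as bivalent. The members are those that overlapped P21 H3K27me3 consensus and no P21 H3K4me3 consensus. They made up 37.0% of the 3113 P7 bivalent regions and 10.3% of the 11192 P7 H3K4me3 consensus regions. Of the other P7 bivalent regions, 1027 had H3K4me3 only at P21, 239 had both marks and 694 had neither. The members were thus chosen by the peaks of P7 and P21, so values of those stages are given as descriptions with no test. The P12 libraries had no part in the choice.

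Chromatin immunoprecipitation and sequencing (ChIP-seq) had been carried out on granule cells of C57Bl/6J mice at 3 stages, with 3 P7, 2 P12 and 2 P21 libraries for H3K4me3 and 5 P7, 4 P12 and 5 P21 libraries for H3K27me3. The P7 cells were granule cell progenitors taken from whole cerebella on a Percoll density gradient. The P12 and P21 samples were nuclei sorted for NeuN, a protein of postmitotic neurons, and NeuroD1, a transcription factor of the granule cell lineage, and their chromatin was sonicated for longer. Every comparison with P7 therefore also compares 2 ways of isolating the cells, and fewer cells with a mark cannot be told apart from less of the mark per cell.

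H3K4me3 is placed by the SET1 and MLL methyltransferase complexes at promoters that are active or ready to be, whereas H3K27me3 is placed by Polycomb repressive complex 2 (PRC2) at promoters held silent. Promoters with both marks, termed bivalent, were first described in embryonic stem cells at genes of development, and during differentiation many keep one mark and lose the other. Granule cell progenitors divide in the outer layer of the postnatal cerebellum in response to Sonic hedgehog from Purkinje cells, then leave the cell cycle, migrate inward and form synapses. The members, most of them at promoters, are thus regions that, by the peak lists, ended this course on the Polycomb side.

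The label "H3K27me3 only" holds for the consensus and not for every library. A P21 H3K4me3 peak lay on 1.13% of the members in replicate 1 and on 62.6% in replicate 2, so 418 members had no P21 H3K4me3 peak and 735 had one in a single library. Over the transcription start site (TSS) counts the replicate 2 library was also the deeper, with 2092414 counts against 457470 in replicate 1. In all 21 ChIP libraries these totals spanned 431401 to 5653193 counts for H3K4me3 and 264093 to 2035801 counts for H3K27me3. Replicates 1 and 2 of H3K27me3 at P12 and P21 stood apart from the later ones in both depth and peak calls, and replicates 1 and 2 of a stage shared an input library where later ones had their own. The lists of P21 H3K27me3 replicates 1 and 2 held 6440 and 6442 peaks, with 59.3% of their bases shared and 2 identical intervals. Of 4 genes of the granule lineage looked at, Pax6, a factor of the lineage, had H3K4me3 of 84.1 to 156 CPM (counts scaled to library size, as explained with the TSS counts) at P7, 63.0 to 71.8 CPM at P12 and 36.9 to 53.9 CPM at P21. Zic1, another such factor, had 58.9 to 102, 24.7 to 30.5 and 24.6 to 30.0 CPM at the 3 stages. Gabra6, a receptor subunit of mature granule cells, had 10.7 to 28.7, 40.1 to 56.1 and 29.1 to 61.6 CPM. Rbfox3, which encodes NeuN, had 10.2 to 22.9, 17.9 to 22.9 and 18.5 to 18.7 CPM, below the median of all TSS at each stage. Neurod1, which encodes the other protein used for sorting, was looked for as well but had no value among the TSS tested. Nothing in the labels says that the libraries came from separate animals, so p-values measure the spread between these libraries.

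Member promoters were rich in CpG, the dinucleotide at which PRC2 and the H3K4 methyltransferases gather in mammals. The 250 bases upstream of the gene start are shown for 5 members whose counts are described further on, with CpG in capitals and the rest in lower case, read 5′ to 3′ on the gene's strand from RefSeq (GRCm38.p6). Cxcr4 (chr1:128592300-128592549, minus strand, 19 CpG) and Tcf7l2 (chr19:55741560-55741809, plus strand, 30 CpG) had little H3K27me3 at P7 and more at P12. Atoh1 (chr6:64728875-64729124, plus strand, 14 CpG) encodes the factor that defines the progenitors. Rarg (chr15:102257523-102257772, minus strand, 11 CpG) and Rasgrp2 (chr19:6399625-6399874, plus strand, 31 CpG) had much H3K27me3 at P7 and less at P12.
Cxcr4: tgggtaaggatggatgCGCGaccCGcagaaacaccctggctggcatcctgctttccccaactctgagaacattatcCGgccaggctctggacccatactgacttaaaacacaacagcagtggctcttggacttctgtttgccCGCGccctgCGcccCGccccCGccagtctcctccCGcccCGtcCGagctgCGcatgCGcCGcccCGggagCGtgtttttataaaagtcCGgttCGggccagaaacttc
Tcf7l2: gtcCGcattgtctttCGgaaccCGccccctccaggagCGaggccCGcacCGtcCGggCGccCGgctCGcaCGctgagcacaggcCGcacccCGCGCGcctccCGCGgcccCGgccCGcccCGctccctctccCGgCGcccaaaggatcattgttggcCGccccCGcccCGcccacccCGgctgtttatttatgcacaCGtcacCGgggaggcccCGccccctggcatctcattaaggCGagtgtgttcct
Atoh1: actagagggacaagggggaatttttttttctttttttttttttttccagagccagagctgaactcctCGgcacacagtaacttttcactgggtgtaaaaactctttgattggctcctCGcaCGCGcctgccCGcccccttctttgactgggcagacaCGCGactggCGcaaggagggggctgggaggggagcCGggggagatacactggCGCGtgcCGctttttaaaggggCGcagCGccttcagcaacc
Rarg: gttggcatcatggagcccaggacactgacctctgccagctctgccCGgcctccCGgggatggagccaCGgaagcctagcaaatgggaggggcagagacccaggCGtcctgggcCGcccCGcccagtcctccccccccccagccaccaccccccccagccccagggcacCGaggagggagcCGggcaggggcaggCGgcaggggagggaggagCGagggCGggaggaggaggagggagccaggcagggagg
Rasgrp2: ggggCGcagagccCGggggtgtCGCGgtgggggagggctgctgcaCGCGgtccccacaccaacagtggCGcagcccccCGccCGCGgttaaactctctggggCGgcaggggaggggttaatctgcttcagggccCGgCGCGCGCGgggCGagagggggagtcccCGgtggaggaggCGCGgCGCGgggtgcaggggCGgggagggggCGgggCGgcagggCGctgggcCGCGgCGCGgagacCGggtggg
The 5 sequences differ widely in CpG number, and their GC content spans 55.6% in Atoh1 to 79.6% in Rasgrp2.

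A promoter sequence was matched for 720 of the 984 member TSS and compared with 18001 promoters of all genes. The median member promoter held 21 CpG, against 13 in all promoters. Among other P7 bivalent regions it was 26 with H3K4me3 only at P21 and 21 with neither mark. The high CpG number is thus not particular to the members. Short motifs of factors active in granule cells, 5 in all and none contained in another, were looked for on both strands of this longer stretch. The GLI core CCACCCA, read by the effectors of Sonic hedgehog, was found in 8.19% of member promoters and in 9.59% of all promoters. The E-box CAGCTG, of the kind bound by Atoh1 and NeuroD1, was found in 15.8% of member promoters and 15.7% of all promoters, and the ZIC core CAGCAGG in 11.4% of member promoters and 10.5% of all promoters. The nuclear factor I site TTGGCA was found in 9.86% of member promoters and 13.3% of all promoters, and the E2F core TTGGCGC in 3.61% of member promoters and 3.29% of all promoters. The share with the nuclear factor I site was alike in other P7 bivalent promoters, at 9.03% (H3K4me3 only at P21) and 9.79% (neither mark). In members with no P21 H3K4me3 peak in any library it was 13.8%, near that of all promoters. Of the 5 promoters shown, only that of Rarg held one of these motifs, the nuclear factor I site.

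At P12, the stage the rule did not use, most members were already in the state that defined them at P21. H3K27me3 consensus lay on 1078 of the 1153 members (93.5%) and H3K4me3 consensus on 135 (11.7%). In the 2 marks jointly, 963 members (83.5%) had H3K27me3 only at P12, 115 (9.97%) had both marks, 20 (1.73%) had H3K4me3 only and 55 (4.77%) had neither. H3K27me3 alone was found at P12 on 2.34% of the regions with H3K4me3 only at P21, on 25.1% of those with both marks at P21 and on 9.08% of those with neither. H3K27me3 alone was also the P12 state of 387 of the 418 members with no P21 H3K4me3 peak in any library (92.6%) and of 576 of the 735 with a peak in 1 library (78.4%).

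The count of libraries with a peak shows how the change was spread over samples. An H3K4me3 peak lay on 99.9%, 40.4% and 99.2% of the members in P7 replicates 1, 2 and 3, on 30.9% and 15.9% in P12 replicates 1 and 2, and on 1.13% and 62.6% in the P21 replicates. The shares followed depth as well as stage: the 3 deepest libraries (P7 replicates 1 and 3, P21 replicate 2) gave the 3 highest, and the part of depth in the fewer H3K4me3 peaks was not tested. Without the P12 replicate 2 list the P12 share of members with H3K4me3 was 30.9%, and without the replicate 1 list it was 15.9%. These are the shares of the single list left, where a peak in that list was enough. H3K27me3 peaks lay on 83.6%, 84.7%, 92.7%, 99.5% and 99.0% of the members in P7 replicates 1 to 5, on 57.1%, 62.2%, 98.3% and 93.2% in P12 replicates 1 to 4, and on 36.3%, 47.1%, 99.9%, 92.5% and 97.7% in P21 replicates 1 to 5. Replicates 1 and 2 were the low ones at every stage, and more so at P12 and P21.

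**Figure D1:**
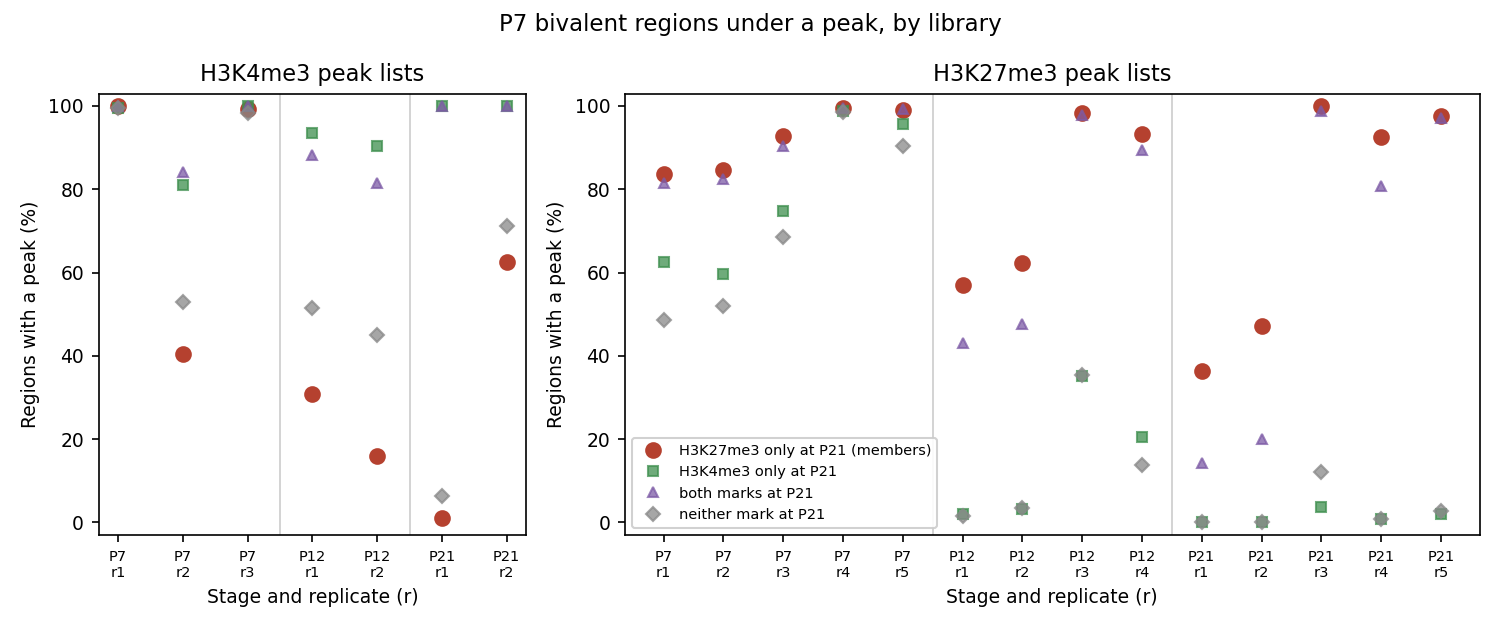
Percent of the member regions with a peak in each library (vertical axis), for H3K4me3 and H3K27me3 at P7, P12 and P21. The 2 P21 H3K4me3 libraries stand at 1.13% and 62.6%, and the H3K27me3 libraries of replicates 1 and 2 lie below the later replicates at P12 and P21.

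Peaks had also been called in the input libraries, and they bear on what an H3K27me3 peak means here. Input peaks lay on 64.8% and 33.0% of the members in P7 replicates 3 and 4, on 73.3% and 60.4% in P12 replicates 3 and 4, and on 53.9% and 71.5% in P21 replicates 3 and 4 of the H3K27me3 series. In the other inputs the share was at most 0.867%. The regions with H3K4me3 only at P21 had like shares in these inputs: 67.7% and 39.3% in those of P7, 83.8% and 64.5% in those of P12, and 56.8% and 77.0% in those of P21. When H3K27me3 peaks that overlapped a peak of the matching input were removed, H3K27me3 consensus at P12 lay on 63.7% of the members.

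Members were mostly CpG-rich promoters of middling width inside broad H3K27me3 domains. A TSS of the RefSeq annotation lay inside or within 1000 bases of 959 of them (83.2%). Of the rest, 163 (14.1%) lay elsewhere in a gene and 31 (2.69%) between genes. Their median width was 1511 bases (interquartile range 1086 to 1822), against 1930 in the regions with H3K4me3 only at P21 and 2042 in those with both marks. Median GC content was 61.3% in the members and 56.1% in all P7 H3K4me3 regions, with 60.2% in the regions with H3K4me3 only at P21. The H3K27me3 domain around a member had a median width of 7182 bases at P7, 5208 at P12 and 6974 at P21, and domains over 50 kb numbered 37, 29 and 76 at the 3 stages. H3K27me3 consensus covered the whole member in 83.2% at P7, 76.1% at P12 and 83.5% at P21. In the regions with H3K4me3 only at P21 it covered the whole region in 6.72% at P12 and in 43.2% at P7.

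Profiles around the centre of the regions show the same breadth. H3K27me3 consensus covered 94.6%, 91.2% and 95.5% of the member centres at P7, P12 and P21, and 34.9%, 25.2% and 36.5% of the positions 5.1 kb away. H3K4me3 consensus was narrow: it covered every centre at P7 by the rule and 1.47% of the positions 2.1 kb away. At P12 it covered 10.9% of the member centres, against 84.0% of the centres of regions with H3K4me3 only at P21. H3K27me3 covered 15.2% of the centres of those regions at P12 and 64.3% at P7.

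**Figure D2:**
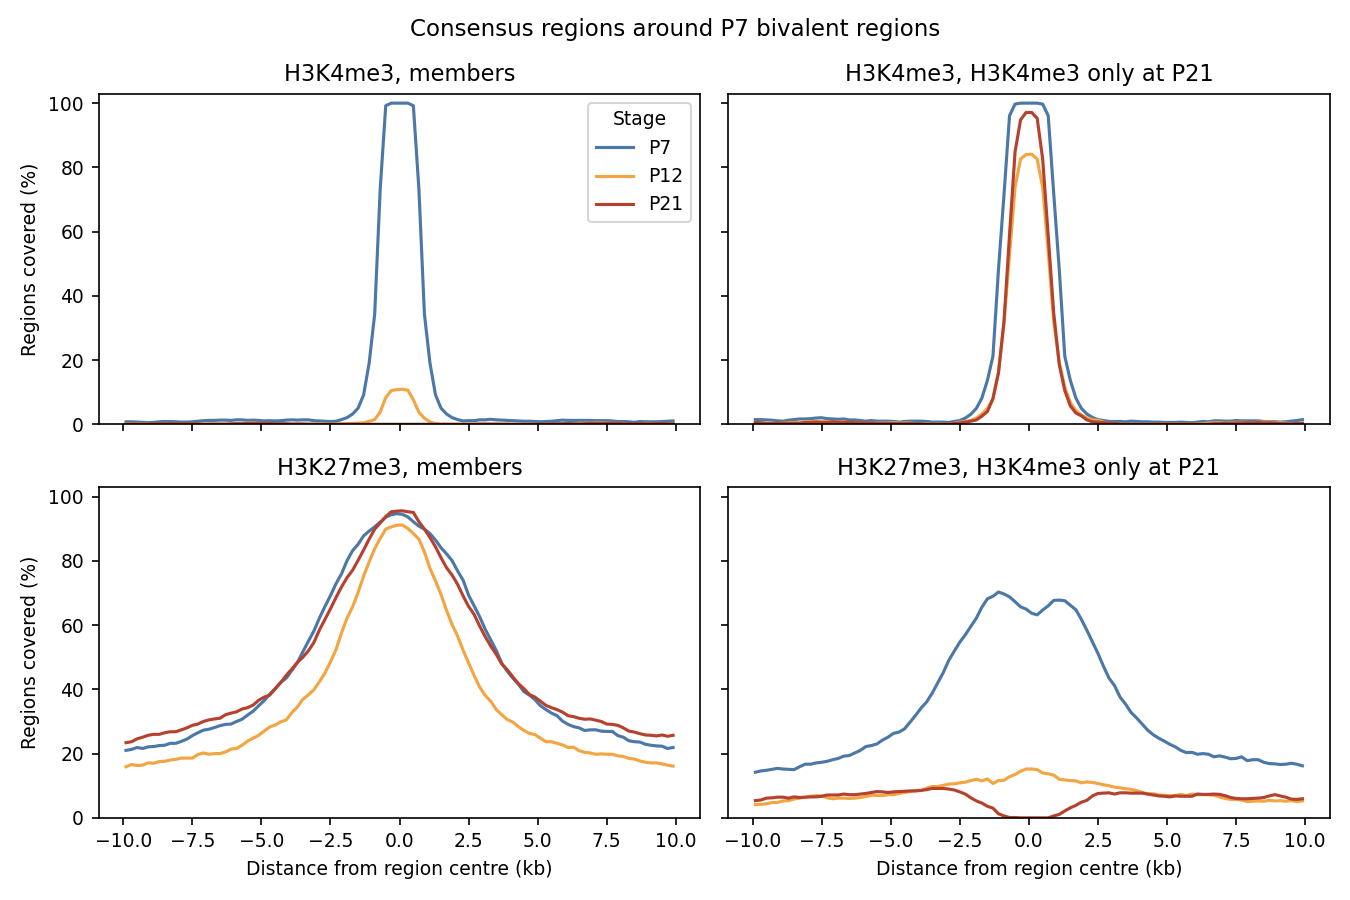
Percent of regions covered by consensus peaks (vertical axis) in 200-base bins by distance from the region centre in kb (horizontal axis), for both marks and the 3 stages, in members and in regions with H3K4me3 only at P21. H3K27me3 in the members is broad at all 3 stages, with 91.2% of the centres covered at P12, against 15.2% in the regions with H3K4me3 only at P21.

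Read counts around each annotated TSS give a level for each member gene. No source used here gives the length of the window counted, so levels of different genes are compared on the assumption of 1 length. In all, 984 of 23985 located TSS (4.1%) had a member region within 1000 bases. Levels are given as CPM after TMM scaling (trimmed mean of M-values), which sets libraries to 1 scale by the bulk of their TSS. A difference between stages is called where the edgeR quasi-likelihood test over all TSS gave a Benjamini-Hochberg adjusted p under 0.05. The test covered 908 member TSS of 20748 for H3K4me3 and 950 of 18089 for H3K27me3. The comparisons P12 against P7 and P21 against P12 share the P12 libraries with each other, and each shares the libraries of 1 stage with the rule.

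H3K4me3 counts at member TSS stayed well above zero at the later stages. Those of members with no P21 H3K4me3 peak were then near the median of all TSS. The median member had 52.5, 45.9 and 50.3 CPM in the P7 libraries, 43.9 and 38.1 CPM in the P12 libraries and 36.9 and 44.3 CPM in the P21 libraries. The median over all TSS tested was 28.8 CPM at P7, 33.0 CPM at P12 and 32.2 CPM at P21, so the members began above it and stayed above it. The 2 P12 libraries and the 2 P21 libraries all lay below the 3 P7 libraries. Members with no P21 H3K4me3 peak had a median of 40.1 ± 3.74 CPM at P7 (SD of library medians, n = 3), 31.9 ± 0.741 CPM at P12 (n = 2) and 30.9 ± 0.108 CPM at P21 (n = 2). Their P12 and P21 medians thus lay slightly below those of all TSS. Members with a P21 H3K4me3 peak in 1 library had a median of 46.1 CPM at both P12 and P21.

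For H3K4me3 in P12 against P7, 103 of the 908 tested members were lower (11.3%) and 6 higher (0.661%), where 9.21% of all TSS tested were lower and 5.34% higher. The share of lower members is thus near that of all TSS, and the share of higher members is smaller. The median log2 fold change was -0.28 in members and 0.16 over all TSS, and 650 members (71.6%) lay below 0, against 45% of all TSS. In the TSS of the other P7 bivalent regions, which also had an H3K4me3 peak at P7 by their choice, 60.9% (H3K4me3 only at P21), 65.0% (both marks) and 62.7% (neither mark) lay below 0. The size of the median depended on the scaling: it was -0.07 in members and 0.37 over all TSS with library totals, where 514 members lay below 0 and 394 above, -0.38 and 0.07 with DESeq2 size factors, and -0.16 in members, where all TSS lay near 0, with a scaling that follows a trend in signal strength. These calls rested on the P12 libraries: without P12 replicate 2 there were 3 lower members, without P12 replicate 1 there were 23, and without P7 replicate 2 there were 206. The 3 left without P12 replicate 2 were Cxcr4, Igfbpl1 and Tshz2, named after their values were seen.

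H3K27me3 at member TSS was far above the level of all TSS at every stage. The median member had 121, 138, 154, 171 and 138 CPM in the P7 libraries, 61.1, 69.4, 147 and 96.1 CPM in the P12 libraries, and 52.6, 64.3, 135, 92.0 and 107 CPM in the P21 libraries, where the median over all TSS tested was 20.5, 24.1 and 25.6 CPM at the 3 stages. P12 replicate 3 and P21 replicate 3 overlapped the P7 range and the other P12 and P21 libraries lay below it. In P12 against P7, 526 of the 950 tested members were lower (55.4%) and 107 higher (11.3%), where 22.0% of all TSS tested were lower and 14.4% higher. Regions with both marks at P21 were close to the members, with 53.1% of their TSS lower and 12.9% higher. Lower H3K27me3 was called in 69.7% of the TSS of regions with H3K4me3 only at P21 and in 59.6% of those with neither mark, and higher H3K27me3 in 1.39% and 1.2% of them.

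**Figure D3:**
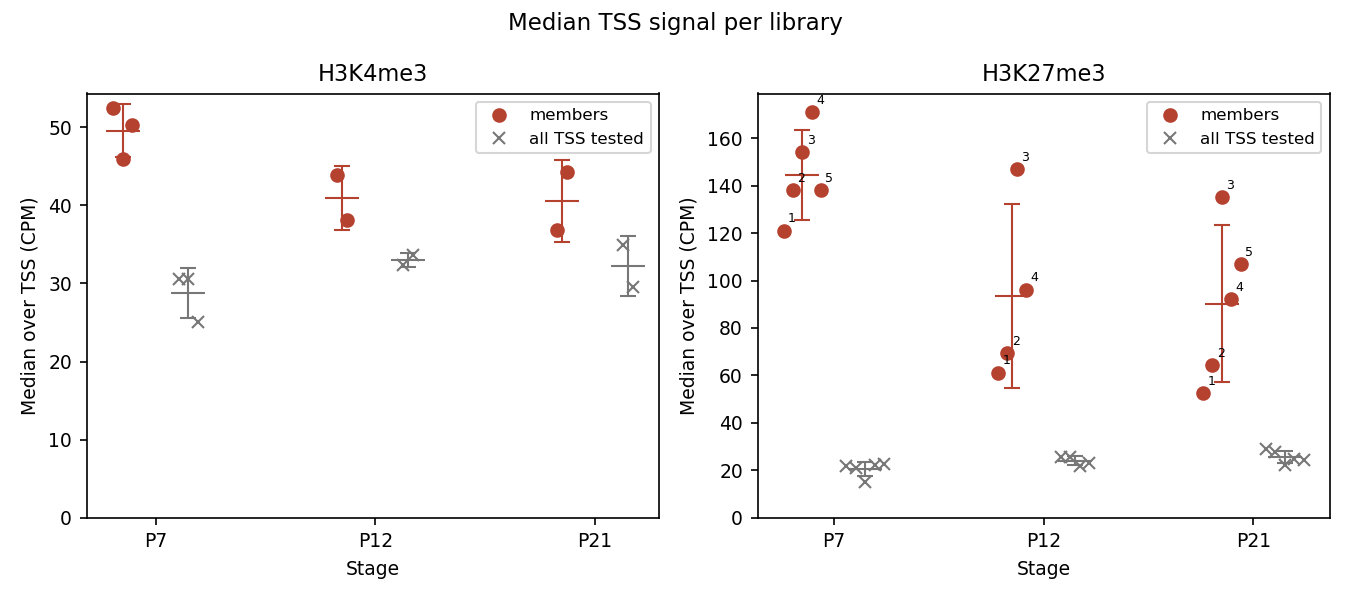
Median CPM over TSS in each library (points; vertical axis, CPM) for members and for all TSS tested, by mark and stage, with bars for the mean ± SD of the library medians and small numbers for the H3K27me3 replicate. Members lie above all TSS in every library of both marks, and the H3K27me3 replicates 1 and 2 are the lowest at P12 and at P21.

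How much H3K27me3 changed depended on the scaling, and for the median member so did the direction. In P12 against P7 the median member was at -0.83 with TMM, -0.73 with DESeq2 size factors, 0.12 with plain library totals and 0.15 with the trended scaling, where the median of all TSS was at 0.18, 0.30, 1.14 and 0.07. Lower and higher members numbered 259 and 354 with library totals and 205 and 337 with the trended scaling. Of the 526 lower members, 259 were also lower with library totals, and 102 had a fold change above 0 there. With the trended scaling 202 of the 526 were lower, 179 had a fold change above 0 and 74 were called higher. Calls that held under all 4 scalings were counted after the data were seen: 160 members were lower (16.8%, against 8.06% of all TSS) and 105 higher (11.1%, against 6.87%). Fitted apart, the replicates 1 and 2 and the later replicates both gave a lower call for 251 members (26.4%, against 11.6% of all TSS) and a higher call for 38 (4.0%, against 1.33%).

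The levels of members with a call are given as a description, since the calls themselves chose these groups and set the order of their P7 and P12 levels, and the members without a call are left out. The 107 members with higher H3K27me3 at P12 had a median of 35.5 ± 7.17 CPM at P7 (SD of library medians, n = 5), 90.4 ± 37.7 CPM at P12 (n = 4) and 109 ± 43.6 CPM at P21 (n = 5). The 160 members lower under all 4 scalings had 326 ± 23.8 CPM at P7, 76.6 ± 28.9 CPM at P12 and 62.3 ± 19.1 CPM at P21. The level of H3K4me3, which did not choose these groups, is given for both without a test. Its median was 73.8 ± 7.89 CPM at P7 (n = 3), 41.7 ± 0.353 CPM at P12 (n = 2) and 39.9 ± 5.59 CPM at P21 (n = 2) in the 107 members, and 41.1 ± 2.72, 46.1 ± 4.96 and 44.2 ± 4.45 CPM in the 160. In all 526 members lower with TMM it was 43.8 ± 3.61, 41.0 ± 4.08 and 41.0 ± 5.7 CPM.

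The 2 marks can be set side by side at each TSS. In P12 against P7, H3K4me3 was below 0 in 94 of the 106 members with higher H3K27me3 tested for both marks, with a median log2 fold change of -0.75, in 299 of the 494 with lower H3K27me3, with a median of -0.13, and in 59 of 144 of those lower under all 4 scalings, with a median of 0.11. H3K4me3 was called lower in 38 of those 106 (35.8%), where it was called lower in 11.2% of the 903 members tested for both marks. It was called lower in 21 of the 494 members with lower H3K27me3 (4.25%). Over all TSS the shares ran the same way, with 14.2% of TSS with higher H3K27me3 and 2.22% of those with lower H3K27me3, so the order is not particular to the members. Under the other scalings H3K4me3 was lower in 47 of 345 members with higher H3K27me3 with library totals, in 49 of 124 with DESeq2 size factors and in 28 of 334 with the trended scaling, where 5.76%, 13.3% and 3.99% of members were lower.

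**Figure D4:**
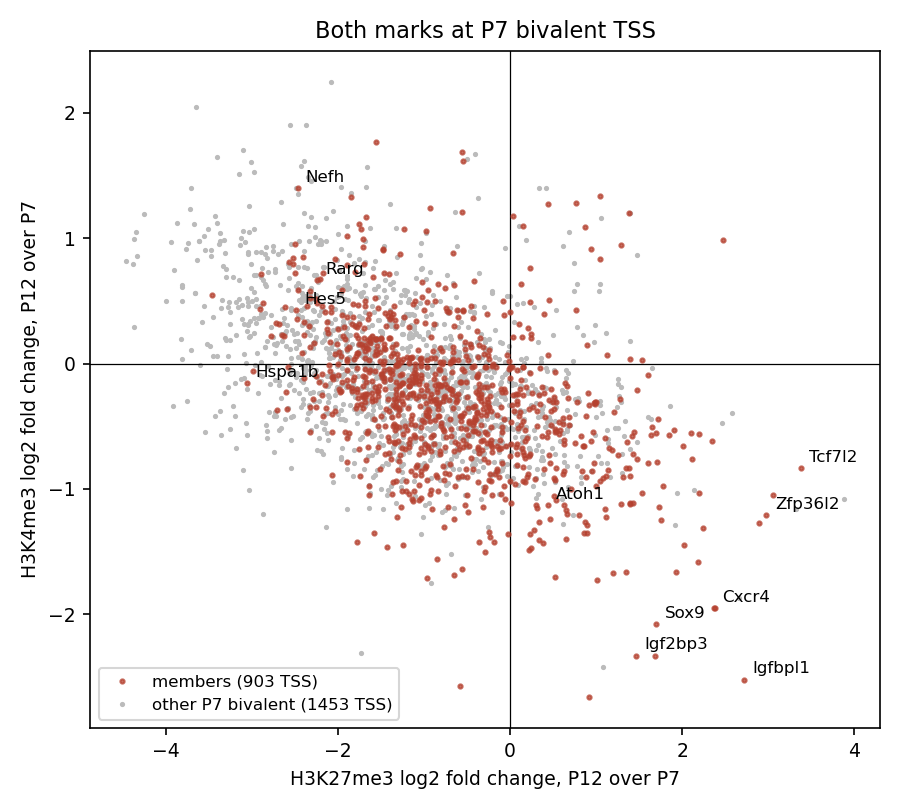
Log2 fold change in P12 against P7 of H3K4me3 and of H3K27me3 at each of 903 member TSS tested for both marks, beside the 1453 TSS of other P7 bivalent regions, with 11 genes named. Members such as Cxcr4 and Igfbpl1 have more H3K27me3 and less H3K4me3 at P12. Rarg and Hes5 have less H3K27me3, and their H3K4me3 fold changes, 0.668 and 0.424, are above 0 and were not called.

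Cxcr4 and Igfbpl1 had calls for both marks, in opposite directions. Both were named by differences in P21 against P7, which shares the P7 libraries with the test of P12 against P7. Cxcr4, the chemokine receptor that keeps progenitors in the outer layer, lay in the member chr1:128589161-128593083 (mm10). Its H3K4me3 was 149, 89.8 and 73.9 CPM (P7), 28.6 and 26.9 CPM (P12) and 28.7 and 17.8 CPM (P21). Its H3K27me3 was 22, 36, 6.06, 21.3 and 10.5 CPM (P7), 65.4, 69.4, 148 and 107 CPM (P12) and 116, 106, 205, 112 and 189 CPM (P21). Every P12 and P21 library lay below every P7 library for H3K4me3 and above it for H3K27me3. In P12 against P7 the log2 fold change was -1.95 ± 0.35 for H3K4me3 (SE, edgeR, Benjamini-Hochberg adjusted p = 1.05e-05) and 2.37 ± 0.32 for H3K27me3 (adjusted p = 2.15e-08). Igfbpl1, which encodes a secreted protein of the developing brain related to the insulin-like growth factor binding proteins, lay in chr4:45824470-45827166. Its H3K4me3 was 121, 91.7 and 119 CPM (P7), 21 and 17.9 CPM (P12) and 18.5 and 34.2 CPM (P21). Its H3K27me3 was 20.3, 30.0, 15.1, 39.1 and 38.9 CPM (P7), 86.1, 87.2, 342 and 266 CPM (P12) and 100, 149, 395, 324 and 298 CPM (P21), again with no overlap between P7 and the later stages. The edgeR log2 fold change was -2.52 ± 0.38 for H3K4me3 (Benjamini-Hochberg adjusted p = 2.58e-08) and 2.72 ± 0.28 for H3K27me3 (adjusted p = 1.63e-11). Both genes kept both calls under each alternative run.

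Tcf7l2 and Zfp36l2 were also higher for H3K27me3 at P12. They were named by their difference in P21 against P7, which shares the P7 libraries with the test of P12 against P7. Tcf7l2, a nuclear effector of Wnt signalling (chr19:55741275-55744992), had almost no H3K27me3 at P7, below the lower quartile of all TSS tested in each P7 library. It counted as bivalent because its region touched P7 H3K27me3 consensus. Its H3K27me3 was 10.1, 6, 0, 10.2 and 5.99 CPM (P7), 37.9, 32.3, 140 and 83.2 CPM (P12) and 52.6, 43.6, 162, 96.9 and 144 CPM (P21), without overlap between P7 and later stages. The log2 fold change in P12 against P7 was 3.38 ± 0.37 (edgeR, Benjamini-Hochberg adjusted p = 7.78e-11). Its H3K4me3 was 63.2, 26.8 and 33.8 CPM (P7), 19.1 and 31.4 CPM (P12) and 24.6 and 19.7 CPM (P21), and P12 overlapped P7 (adjusted p = 0.121). Zfp36l2, a protein that speeds the decay of AU-rich mRNAs (chr17:84185137-84188825), had H3K27me3 of 15.2, 27, 21.2, 20.4 and 21 CPM (P7), 89.5, 79.1, 259 and 196 CPM (P12) and 103, 78.1, 277, 204 and 196 CPM (P21). It rose by 2.98 ± 0.29 on the log2 scale at P12 (adjusted p = 1.73e-12, edgeR). Its H3K4me3 was 129, 87.9 and 93.5 CPM (P7), 36.3 and 56.1 CPM (P12) and 32.8 and 41.7 CPM (P21), and fell at P12 by 1.21 on the log2 scale (adjusted p = 0.00467, edgeR). That H3K4me3 call was lost without either P12 library.

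Plpp3, Antxr2, B3gnt2 and Cachd1 were, with Igfbpl1, Tcf7l2, Zfp36l2 and Sox9, the 8 members with the largest differences upward in H3K27me3 in P21 against P7. That choice shares the P7 libraries with the test of P12 against P7. Plpp3, a lipid phosphatase, had H3K27me3 of 5.07, 9, 15.1, 16.2 and 13.5 CPM (P7), 67.1, 63, 157 and 88.3 CPM (P12) and 68.4, 64.3, 140, 97.9 and 101 CPM (P21). Antxr2, a receptor for extracellular matrix and anthrax toxin, had H3K27me3 of 13.5, 12, 0, 9.36 and 15 CPM (P7), 39.6, 27.4, 78.2 and 45.5 CPM (P12) and 50.0, 73.5, 168, 102 and 135 CPM (P21). The P7 values of both genes lay below the P7 median over all TSS of 20.5 CPM. All 8 were higher at P12 than at P7, with log2 fold changes of 2.24 ± 0.36 in Antxr2, 2.47 ± 0.35 in B3gnt2, a glycosyltransferase, and 3.06 ± 0.30 in Plpp3. Cachd1, a protein related to auxiliary subunits of calcium channels, had 2.35 ± 0.38, and its call was lost when replicates 1 and 2 were fitted alone. B3gnt2 differed from the others in H3K4me3, which was 9.53, 15.3 and 16.5 CPM (P7), 22.9 and 29.1 CPM (P12) and 10.3 and 22 CPM (P21) and thus low at all stages. Antxr2 had the highest H3K4me3 of the 8 at P7, and it was 183, 218 and 222 CPM (P7), 89.7 and 76.2 CPM (P12) and 51.3 and 84.8 CPM (P21).

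**Figure D5:**
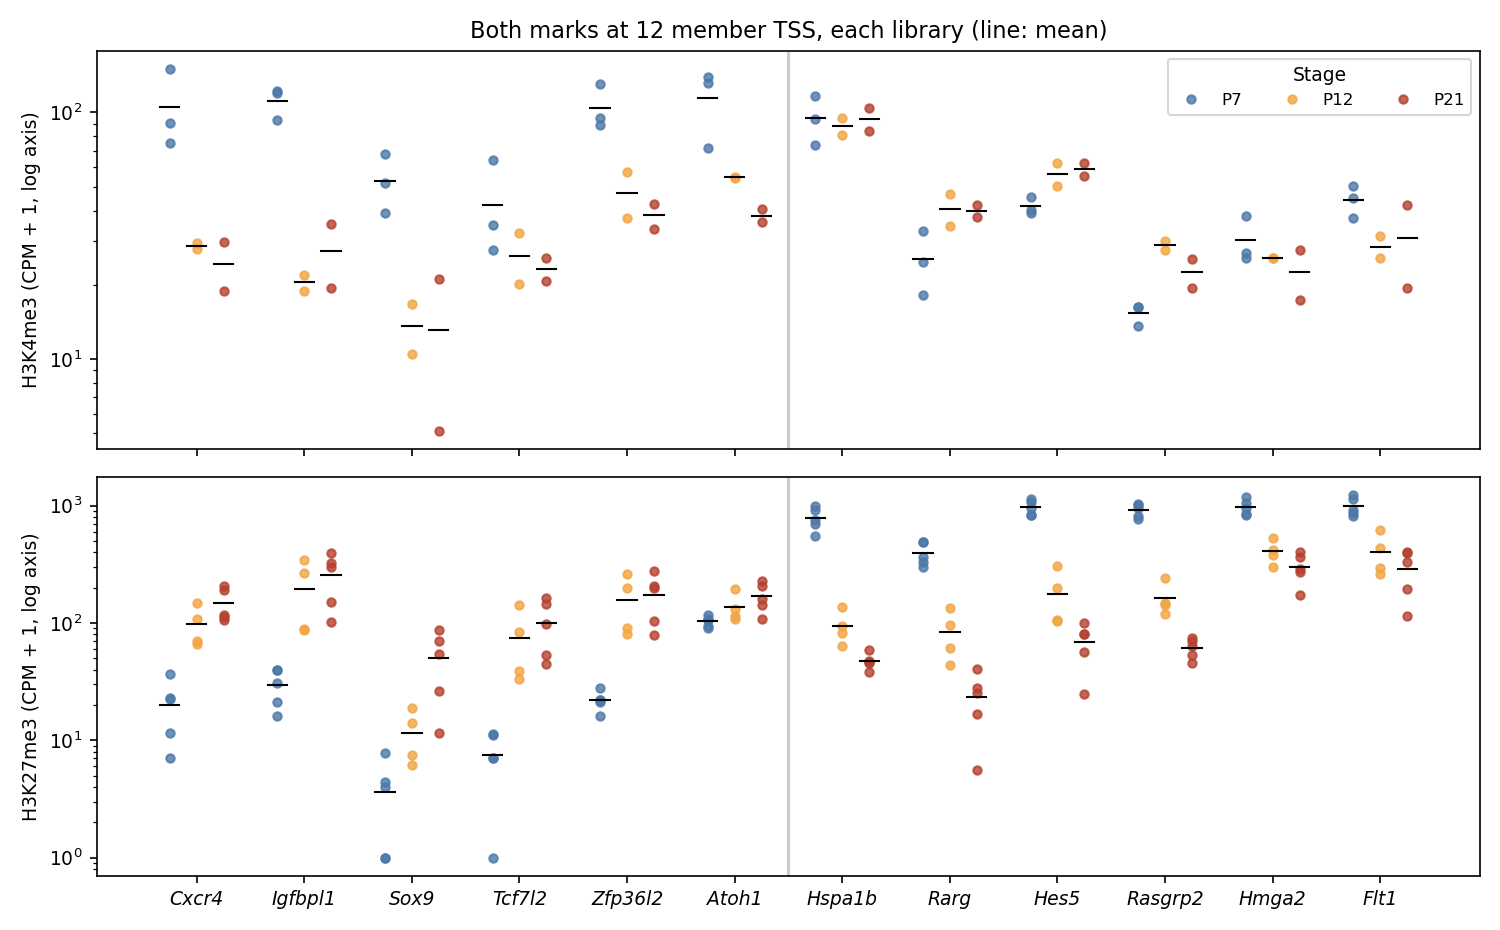
CPM + 1 on a log axis in each library for 12 member genes, by mark and stage, with the mean as a black line. In the first 6 genes H3K27me3 is higher or near level at the later stages and H3K4me3 lower, and in the other 6 H3K27me3 is lower at the later stages.

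The 8 members with the largest differences downward in H3K4me3 in P21 against P7 were Cxcr4, Igf2bp3, Igfbpl1, Irx1, Pantr1, Sox9, Tshz2 and Whrn. Here too the choice shares the P7 libraries with the test of P12 against P7. Igf2bp3, a fetal RNA-binding protein, had H3K4me3 of 99.3, 42 and 63.6 CPM (P7), 19.1 and 8.97 CPM (P12) and 8.21 and 12.7 CPM (P21). Its log2 fold change in P12 against P7 was -2.33 ± 0.42 (edgeR, Benjamini-Hochberg adjusted p = 1.07e-05; adjusted p = 0.0871 without P12 replicate 2), and its H3K27me3 rose by 1.46 ± 0.27 (adjusted p = 1.51e-05). Pantr1, a noncoding gene, and its neighbour Pou3f3, a POU-domain factor, share 1 member (chr1:42693122-42700192) and lie on opposite strands. Pantr1 had H3K4me3 of 119, 61.1 and 57.4 CPM (P7), 21 and 11.2 CPM (P12) and 20.5 and 23.4 CPM (P21), with a log2 fold change of -2.33 ± 0.40 in P12 against P7 (edgeR, Benjamini-Hochberg adjusted p = 3.37e-06; 0.0642 without P12 replicate 2). Pou3f3 had H3K4me3 of 114, 120 and 178 CPM (P7), 51.5 and 17.9 CPM (P12) and 32.8 and 61.9 CPM (P21). It had H3K27me3 of 11.8, 9, 63.6, 29.8 and 12 CPM (P7), 20.7, 45.2, 218 and 167 CPM (P12) and 26.3, 45.9, 287, 286 and 106 CPM (P21), where the low values at P12 and P21 were in replicates 1 and 2 and overlapped P7. The log2 fold change of Pou3f3 was -1.95 ± 0.31 for H3K4me3 (adjusted p = 3.78e-07, edgeR; 0.0876 without P12 replicate 2) and 2.38 ± 0.39 for H3K27me3 (adjusted p = 9.05e-06).

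Tshz2 and Irx1, of the teashirt and Iroquois families of homeobox factors, differed in their H3K27me3. Tshz2 had H3K4me3 of 154, 109 and 103 CPM (P7), 36.3 and 42.6 CPM (P12) and 26.7 and 37.5 CPM (P21). Its H3K27me3 was 25.4, 9, 15.1, 21.3 and 21 CPM (P7), 39.6, 42, 133 and 72.9 CPM (P12) and 60.5, 89.6, 161, 101 and 178 CPM (P21), and the P12 and P21 libraries lay above those of P7. The log2 fold change in P12 against P7 was -1.66 ± 0.32 for H3K4me3 (edgeR, Benjamini-Hochberg adjusted p = 3.63e-05) and 1.93 ± 0.31 for H3K27me3 (adjusted p = 7e-07). Irx1 had H3K4me3 of 71.8, 51.6 and 107 CPM (P7), 28.6 and 26.9 CPM (P12) and 24.6 and 21.6 CPM (P21). It fell at P12 by 1.49 on the log2 scale (adjusted p = 0.00249, edgeR), a call that was lost without either P12 library. Irx1 H3K27me3 was 137, 147, 279, 293 and 151 CPM (P7), 82.6, 113, 467 and 340 CPM (P12) and 57.9, 89.6, 373, 302 and 166 CPM (P21), with wide overlap between stages and no call with TMM (adjusted p = 0.532, edgeR), though it was called higher with library totals and the trended scaling. Whrn, a scaffold protein of sensory hair cells, had H3K4me3 of 89, 68.8 and 99.8 CPM (P7), 38.2 and 42.6 CPM (P12) and 12.3 and 24.8 CPM (P21). Its H3K4me3 call in P12 against P7 (adjusted p = 0.0165, edgeR) was lost without either P12 library, and its H3K27me3 rose by 1.40 ± 0.26 on the log2 scale (adjusted p = 9.78e-06).

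Sox9 had little H3K27me3 at P12 as well as at P7, and more at P21. This factor of neural stem cells and glia lay in chr11:112781704-112785657. Its H3K4me3 was 50.5, 38.2 and 66.8 CPM (P7), 9.54 and 15.7 CPM (P12) and 4.1 and 20.2 CPM (P21). Its H3K27me3 was 3.38, 0, 0, 6.8 and 2.99 CPM (P7), 5.16, 6.46, 17.8 and 12.9 CPM (P12) and 10.5, 25.3, 68.9, 53.8 and 85.6 CPM (P21), so P21 lay above P7 without overlap and P12 overlapped P7. As in Tcf7l2, each P7 value lay below the lower quartile of all TSS tested in its library, and the region counted as bivalent by its overlap with P7 H3K27me3 consensus. In P12 against P7 the edgeR log2 fold change was -2.08 ± 0.46 for H3K4me3 (Benjamini-Hochberg adjusted p = 0.000556; 0.105 without P12 replicate 1 and 0.0556 without P12 replicate 2) and 1.70 ± 0.51 for H3K27me3 (adjusted p = 0.00735; 0.0766 without a term for the input arrangement). Sox9 is a marker of astrocytes and Bergmann glia, and the summed H3K4me3 of the 16 of 18 such markers that were tested was 537 to 695 CPM at P7, 471 to 487 CPM at P12 and 382 to 498 CPM at P21. The part of glial cells in the P7 preparation in this difference was not tested.

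The 8 members with the largest differences downward in H3K27me3 in P21 against P7 were called lower at P12 under all 4 scalings. That choice shares the P7 libraries with the test of P12 against P7, so these calls and p-values are not independent of it. None of the 8 had a call for H3K4me3 at P12 with TMM, and Itpr3 was called higher under 1 of the 4 scalings. Rarg, the gamma retinoic acid receptor (chr15:102257063-102257951), had H3K27me3 of 299, 327, 494, 492 and 362 CPM (P7), 43, 59.7, 133 and 94.3 CPM (P12) and 15.8, 4.59, 39.8, 26.9 and 24.5 CPM (P21). All P12 libraries lay below P7, and P21 lay below P12. Its H3K4me3 was 23.7, 17.2 and 32.2 CPM (P7), 45.8 and 33.6 CPM (P12) and 41 and 36.6 CPM (P21). Rasgrp2, an exchange factor for Rap (chr19:6399007-6400007), had H3K27me3 of 1020, 1030, 960, 811 and 769 CPM (P7), 119, 147, 242 and 142 CPM (P12) and 44.7, 52.8, 73.8, 62.4 and 69.3 CPM (P21). Its H3K4me3 was low throughout, at 15.2, 15.3 and 12.6 CPM (P7), 26.7 and 29.1 CPM (P12) and 18.5 and 24.4 CPM (P21). Hes5, an effector of Notch in neural stem cells (chr4:154960703-154961963), had H3K27me3 of 837, 948, 1150, 1080 and 826 CPM (P7), 105, 103, 304 and 197 CPM (P12) and 23.7, 55.1, 98, 79.6 and 80.2 CPM (P21), and H3K4me3 of 44.4, 38.2 and 39.3 CPM (P7), 61.1 and 49.3 CPM (P12) and 61.6 and 54.4 CPM (P21). The log2 fold change of H3K27me3 in P12 against P7 was -2.24 ± 0.26 in Rarg, -2.50 ± 0.25 in Rasgrp2 and -2.49 ± 0.26 in Hes5 (edgeR, Benjamini-Hochberg adjusted p = 2.39e-10, 3.85e-12 and 1.84e-11), each called under all 4 scalings. H3K4me3 was not called in any of the 3 (adjusted p = 0.189, 0.175 and 0.331).

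The other 5 of the 8 largest were Hspa1b, Itpr3, Llgl2, Lmo1 and Ssbp4. Hspa1b, an inducible heat shock protein, had H3K27me3 of 910, 996, 551, 699 and 751 CPM (P7), 93, 80.7, 137 and 62.6 CPM (P12) and 36.9, 45.9, 44.6, 46.3 and 58.4 CPM (P21), and H3K4me3 of 115, 72.6 and 92.7 CPM (P7), 80.1 and 94.2 CPM (P12) and 103 and 83.4 CPM (P21), the highest H3K4me3 of the 8. In the 2 P21 libraries the median TSS of regions with H3K4me3 only at P21 had 74.9 and 86.7 CPM. Hspa1b thus had as much H3K4me3 as those regions, though by the consensus its own region had none at P21. The near-identical neighbour Hspa1a makes the split of reads between the 2 genes uncertain. Itpr3, a calcium channel of the endoplasmic reticulum, and Llgl2, a regulator of cell polarity, had log2 fold changes of -2.57 ± 0.26 and -2.42 ± 0.25 in P12 against P7. Lmo1, a LIM-only cofactor, and Ssbp4, a single-stranded DNA binding protein, had -2.06 ± 0.27 and -2.89 ± 0.26. All 8 were called lower at P12 under all 4 scalings and in both input arrangements, as were 154 members (16.2%) and 7.6% of all TSS tested. A P21 H3K27me3 peak was still present in 2 or 3 libraries at each of these 8 members, so they lay close to the edge of the rule.

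The 4 members in the next group were named for the largest differences upward in H3K4me3 in P21 against P7, against the direction of the rule. Any H3K4me3 call of theirs at P12 shares the P7 libraries with that choice. Nefh, the heavy neurofilament subunit of large mature axons, had H3K4me3 of 4.87, 5.73 and 8.64 CPM (P7), 19.1 and 13.5 CPM (P12) and 20.5 and 19.2 CPM (P21). Each of these values lay below the lower quartile of all TSS tested in its library. That quartile was 8.51 to 17.2 CPM at P7 and 20.6 to 22.6 CPM in the later libraries. The trended scaling gave an H3K4me3 log2 fold change of 0.292 for Nefh in P12 against P7, where TMM gave 1.4. Nefh H3K27me3 was 507, 594, 724, 639 and 534 CPM (P7), 82.6, 95.3, 154 and 92.6 CPM (P12) and 42.1, 64.3, 100, 61.3 and 107 CPM (P21), and P12 and P21 did not overlap P7. H3K27me3 fell at P12 by 2.47 on the log2 scale in Nefh (edgeR, Benjamini-Hochberg adjusted p = 8.43e-12), and H3K4me3 was not called (adjusted p = 0.12). Perm1, Tex16 and Dennd2c had H3K4me3 of at most 10.2 CPM in the P7 libraries and of 7.63 to 35.9 CPM in the later ones, and Perm1 and Tex16 had calls (adjusted p = 0.0468 and 0.0429) that were lost in most alternatives, among them 2 of the 3 other scalings. The P7 values were thus low, as the median over all TSS tested was 28.8 CPM at P7. For these 3 genes the trended scaling left log2 fold changes of 0.595, 0.7 and 0.114, where TMM gave 1.62, 1.69 and 1.1.

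Progenitor and Sonic hedgehog genes held 9 members among 33 listed genes (27.3%), in a list put together with earlier results of these data known. Of all located TSS 4.1% were members, a share that also stands beside the lists further on. H3K4me3 was lower at P12 in 3 of the 9 tested (Atoh1, Cxcr4 and Sfrp1) and higher in none, where 11.3% of all members and 9.21% of all TSS were lower. H3K27me3 was higher in 3 (Cxcr4, Gli1 and Insm1, each under all 4 scalings) and lower in Barhl1, under 2 scalings. With TMM it was higher in 11.3% of all members and 14.4% of all TSS, and lower in 55.4% and 22.0%. Atoh1, the basic helix-loop-helix factor that specifies granule cells (chr6:64727501-64731575), had H3K4me3 of 138, 70.7 and 130 CPM (P7), 53.4 and 53.8 CPM (P12) and 34.9 and 39.4 CPM (P21). It fell at P12 by 1.13 on the log2 scale (edgeR, Benjamini-Hochberg adjusted p = 0.00562), and the call was lost without either P12 library and with the trended scaling. Atoh1 H3K27me3 was 89.6, 108, 93.9, 117 and 105 CPM (P7), 114, 108, 195 and 131 CPM (P12) and 108, 140, 226, 160 and 207 CPM (P21), with high levels already at P7 and no call at P12 (adjusted p = 0.136), though it was called higher under the 3 other scalings. Sfrp1, a secreted Wnt inhibitor chosen after its values were seen, averaged 51.5 CPM of H3K4me3 at P12 and 144 CPM at P7 (adjusted p = 4.99e-05, edgeR). Gli1, the transcriptional readout of Sonic hedgehog, averaged 44.1 CPM of H3K27me3 at P12 and 22.5 CPM at P7, and Insm1, a factor of dividing neuronal precursors, averaged 73.0 CPM at P12 and 31.2 CPM at P7. Gli3, Hhip and Ccnd1 were members with no call for either mark with TMM.

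In the signalling lists most members had lower H3K27me3 at P12 with TMM, as did 55.4% of all members tested, and fewer had it under all 4 scalings. Genes named in these lists beyond Hes5, Tcf7l2 and Sox9 were picked after their values were seen. Of 22 Notch genes 7 were members, and H3K27me3 was lower at P12 in 6 of the 7, with Dll1, a ligand, and Hes5 called under all 4 scalings. Dll1 averaged 75.7 CPM of H3K27me3 at P12 and 400 CPM at P7, and H3K4me3 was called in none of the 6 Notch members tested for it. Of 50 Wnt genes and modulators 21 were members (42.0%), with H3K27me3 lower in 13 and higher in Tcf7l2 alone. The 4 called lower under all scalings were the ligands Wnt2 and Wnt11, the receptor agonist Rspo2 and the antagonist Dkk2, and Wnt11 averaged 219 CPM at P12 and 925 CPM at P7. H3K4me3 was lower in 4 Wnt members (Fzd2, Sfrp1, Sfrp2 and Wnt5a).

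In the BMP, TGF-beta and activin list 16 of 66 genes were members, with H3K27me3 lower in 11 and higher in 3. The 3 higher, under all 4 scalings, were receptors: Bmpr1b averaged 120 CPM at P12 and 67.8 CPM at P7, Tgfbr1 averaged 131 CPM at P12 and 46.5 CPM at P7, and Tgfbr2 averaged 190 CPM at P12 and 103 CPM at P7. Of the 11 lower, the secreted antagonist Grem1 alone was lower under all 4 scalings. H3K4me3 was lower in Bmpr1b, Tgfbr2 and the inhibitory factor Id1. In the FGF list 9 of 39 genes were members, with H3K27me3 lower in 5 and higher in the receptor-like Fgfrl1. Etv4, an ETS factor induced by FGF, was the one lower under all scalings, with 82.2 CPM at P12 and 545 CPM at P7.

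In the 2 lists of axon guidance genes the lower H3K27me3 calls with TMM stand beside 55.4% of all members and 22.0% of all TSS. In the Eph, ephrin, Slit, Robo and netrin list 7 of 41 genes were members, and H3K27me3 was lower at P12 in 5, with Efna3, Epha2 and Epha10 lower under all 4 scalings. Of 31 semaphorins, plexins and neuropilins 8 were members, and of the 7 tested 5 were lower, with Nrp2, Sema3f and Sema5b lower under all scalings. With library totals 3 members of the first list and 1 of the second were called higher. Nrp2, a co-receptor for class 3 semaphorins, had H3K27me3 of 479, 597, 681, 581 and 495 CPM (P7), 46.5, 59.7, 134 and 92.6 CPM (P12) and 7.9, 50.5, 82.5, 64.6 and 70.7 CPM (P21). Sema3f, its secreted ligand, had H3K27me3 of 401, 459, 415, 416 and 325 CPM (P7), 79.2, 54.9, 118 and 91.8 CPM (P12) and 23.7, 32.2, 30.1, 30.1 and 38 CPM (P21). In both genes the mean was highest at P7 and lowest at P21, and P12 did not overlap P7. For H3K4me3 no member of these lists had a call with TMM, Sema5b was higher with library totals and the trended scaling, and 1 member of the Eph list was lower with DESeq2 size factors.

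Among transcription factors, homeobox genes outside the Hox clusters gave 29 members of 153, and the 39 Hox genes gave none. H3K27me3 at P12 was lower in 18 of the 29 homeobox members and higher in 4 with TMM, where 55.4% of all members were lower. It was lower in 6 and higher in 9 with library totals, and lower in 1 and higher in 12 with the trended scaling. Of the homeobox members Otx2 was lower and Pou3f2, Pou3f3, Six5 and Tshz2 were higher under all 4 scalings. H3K4me3 was lower in 7 and higher in none, and 6 of the 7 (Irx1, Irx2, Irx5, Pax3, Pou3f3 and Tshz2) were lower under all 4 scalings, where 28 members (3.08%) and 0.959% of all TSS were. In all lists and outside them 1 member was higher for H3K4me3 under all 4 scalings (0.11%, against 0.983% of all TSS). Irx5 shares its member with the long noncoding gene Crnde. Of 20 Sox genes 8 were members, with H3K27me3 lower in 6, of which Sox6 under all scalings, and higher in Sox9. Forkhead genes gave 6 members of 44, with H3K27me3 lower in 4, none of them under all scalings, and higher in Foxp2. Of 72 basic helix-loop-helix genes 10 were members, with H3K27me3 lower in 9 (Hes5, Msc and Tcf15 under all scalings) and H3K4me3 lower in Atoh1, Id1 and Npas3. The T-box, Gata, Tfap2 and Klf list gave 4 members of 48, with H3K27me3 lower in 3, and the list of nuclear factor I, Zic, Tead, Ebf and Tox genes gave 6 of 27, with Ebf4 lower and Gli1 higher.

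Few genes of mature neurons were members, as few of all located TSS were (4.1%). Of 47 synaptic and mature granule cell genes 2 were members, Nlgn1 and Slc17a6, and 11 had a region with H3K4me3 only at P21. Nlgn1, a postsynaptic adhesion molecule, had H3K27me3 of 172, 189, 109, 161 and 162 CPM (P7), 48.2, 33.9, 63.4 and 33.4 CPM (P12) and 71.1, 43.6, 79.6, 45.2 and 74.7 CPM (P21), and P12 and P21 lay below P7 (edgeR log2 fold change in P12 against P7 -1.82 ± 0.26, Benjamini-Hochberg adjusted p = 7.38e-08). Of 158 ion channel genes 15 were members and 21 had H3K4me3 only. H3K27me3 was lower in 12 of the 15, with Kcna6 and Trpc5 among those lower under all scalings, and higher in Kcnh5. Cadherins and protocadherins gave 5 members of 92, with Pcdh8 lower and Pcdh19 higher. Of 42 cell cycle genes 4 were members, with H3K27me3 lower in Cdkn2a, whose fold change was above 0 with the trended scaling, and higher in Cdk6. Cdk6, a kinase that drives entry into the cell cycle, had H3K4me3 of 173, 139 and 156 CPM (P7), 78.2 and 83 CPM (P12) and 75.9 and 83.9 CPM (P21), and its H3K27me3 was 23.7, 33, 0, 21.3 and 25.4 CPM (P7), 43, 64.6, 98 and 83.2 CPM (P12) and 63.2, 136, 162, 100 and 185 CPM (P21). Its H3K4me3 call (adjusted p = 0.00592, edgeR) was lost without either P12 library and its H3K27me3 call (adjusted p = 0.000119) within replicates 1 and 2 alone.

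Markers of other cerebellar cells were members in 20% (unipolar brush cells and nuclei), 16.7% (Purkinje cells), 22.2% (astrocytes and Bergmann glia), 7.69% (oligodendrocytes) and 25% (endothelial cells) of their lists, where 4.1% of all located TSS were. Members were 2 of 10 markers of cerebellar nuclei and unipolar brush cells (Otx2 and Slc17a6, both with lower H3K27me3 at P12), 2 of 12 Purkinje cell markers (Car8 with lower and Foxp2 with higher H3K27me3), 4 of 18 astrocyte and Bergmann glia markers (Id3, Nes and Sox2 with lower and Sox9 with higher H3K27me3), 1 of 13 oligodendrocyte markers (Nkx6-2, lower) and 3 of 12 endothelial markers (Flt1, lower). Of the lower calls, made with TMM, that of Otx2 alone held under all 4 scalings, and the fold change of Car8, Nes, Sox2, Nkx6-2 and Flt1 was above 0 with library totals or the trended scaling. None of 12 interneuron and 10 microglia markers was a member. No tested marker of these lists was at 0 for H3K4me3 in all libraries of a stage. Summed H3K4me3 of the 11 tested Purkinje markers was 562 to 704 CPM at P7, 485 to 536 CPM at P12 and 439 to 477 CPM at P21. For interneurons it was 478 to 568, 316 to 395 and 388 to 419 CPM, for unipolar brush cells 292 to 462, 345 to 372 and 278 to 343 CPM, and for oligodendrocytes 239 to 278, 267 to 296 and 260 to 295 CPM. For microglia it was 55.5 to 122, 108 to 162 and 150 to 168 CPM, and for endothelial cells 266 to 285, 256 to 277 and 293 to 295 CPM. The sums of Purkinje, interneuron, and astrocyte and Bergmann glia markers were thus higher in the P7 libraries than in all later ones, those of microglia were higher at P21 than at P7, and their part in the lower H3K4me3 of members at P12 was not tested.

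Foxp2 is the Purkinje marker whose marks moved oppositely. It had H3K4me3 of 127, 86 and 120 CPM (P7), 51.5 and 60.5 CPM (P12) and 49.2 and 65.6 CPM (P21). Its H3K27me3 was 10.1, 15, 39.4, 13.6 and 12 CPM (P7), 34.4, 25.8, 70.3 and 42.9 CPM (P12) and 23.7, 50.5, 86.4, 59.2 and 84.2 CPM (P21), where 1 P7 library (39.4 CPM) overlapped P12. Its H3K27me3 rose at P12 by 1.53 ± 0.33 on the log2 scale (edgeR, Benjamini-Hochberg adjusted p = 0.000141), and its H3K4me3 call (adjusted p = 0.0104) was lost without either P12 library.

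Of the 8 widest member regions, that of Barhl1, a homeobox factor of granule cells, was the widest at 9532 bases, followed by that of Bcl11a at 7114, the region of Pou3f3 and Pantr1 at 7071, that of Irx5 and Crnde at 6552, Pou3f2 at 6540, Pcdh17 at 5958, En1 at 5832 and Fzd2 at 5006. Bcl11a, a zinc finger repressor, had H3K27me3 of 23.7, 3, 6.06, 25.5 and 24 CPM (P7), 31, 35.5, 105 and 66 CPM (P12) and 29, 52.8, 140, 71 and 66.6 CPM (P21) around its TSS, and Pou3f2 had 10.1, 15, 15.1, 20.4 and 18 CPM (P7), 24.1, 22.6, 157 and 77.2 CPM (P12) and 23.7, 48.2, 145, 146 and 85.6 CPM (P21). Both were higher at P12 (adjusted p = 4.92e-05 and 2.14e-07, edgeR), and both calls were lost within replicates 1 and 2 alone. The H3K27me3 domain around Bcl11a was 66817 bases at P21 and 8328 bases at P7, and that around Pou3f2 was 18185 bases at P21 and 848 bases at P7.

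The 8 members with the highest mean H3K27me3 at P12 were Hmga2, Prdm6, Spag6, Sall3, Shisa3, Ankrd63, Flt1 and Nkx6-2. Hmga2, a chromatin protein of stem cells, had H3K27me3 of 1050, 1190, 848, 953 and 828 CPM (P7), 301, 378, 533 and 415 CPM (P12) and 171, 271, 367, 290 and 405 CPM (P21). Its H3K4me3 was 37.1, 24.8 and 25.9 CPM (P7), 24.8 and 24.7 CPM (P12) and 16.4 and 26.7 CPM (P21). Flt1, a receptor for vascular endothelial growth factor, had H3K27me3 of 812, 912, 1230, 1140 and 870 CPM (P7), 262, 291, 622 and 434 CPM (P12) and 113, 193, 400, 328 and 395 CPM (P21). Of these 8, Spag6 alone kept a fold change below 0 under all 4 scalings. In the other 7 H3K27me3 was lower at P12 with TMM and its fold change was above 0 with the trended scaling. H3K4me3 was called in none of the 8.

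The edge of the rule is described by 4 genes on either side of it. For scale, the P21 median of H3K27me3 was 90.2 CPM in all members and 25.6 CPM over all TSS. Among genes whose region had a P21 H3K27me3 peak in exactly 2 libraries, those with the most H3K4me3 at P7 were Creb3l2, Fndc3a, Sox5 and Sstr2. At P21 their H3K27me3 was 25.2 to 47.6 CPM in Creb3l2, 7.9 to 30.1 CPM in Fndc3a, 4.59 to 31.2 CPM in Sox5 and 20.7 to 62.5 CPM in Sstr2. Among genes just outside, with a peak in 1 library, it was 9.7 to 27.2 CPM in Bub3, 4.08 to 18.4 CPM in Gosr1, 7.9 to 36.7 CPM in Nrn1 and 5.26 to 42.0 CPM in Pakap. The ranges inside and outside the rule overlap.

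Few differences were called between P12 and P21, where 2 libraries a stage were compared for H3K4me3, and a missing call does not show equal levels. In P21 against P12 no member was called for H3K4me3 in either direction by edgeR or DESeq2, as for all TSS (0.0% lower and 0.0% higher by edgeR), and 11 members and 206 of all TSS had an unadjusted p under 0.05. H3K27me3 was lower at P21 in 61 members (6.42%, against 3.06% of all TSS) and higher in 24 (2.53%, against 0.918%). The median log2 fold change was -0.14 for H3K27me3 and 0.01 for H3K4me3. The H3K27me3 counts rested on single libraries: lower members numbered 22 without P12 replicate 3 and 38 without either P21 replicate 1 or 2, and higher members 8 without P12 replicate 4, 9 without P12 replicate 1 or 2 or P21 replicate 3, and 11 without P21 replicate 2.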

How the data were processed

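Peak lists and a table of counts around TSS had been deposited for 21 ChIP libraries, and peak lists for the inputs. The deposited counts are whole-number read counts per TSS, not normalized, made by the authors. The score in the deposited peak lists is a whole number whose meaning is not stated, so the intervals alone were used. The submitters' processing notes name mm10, HOMER 4.11 and ChIPseeker 1.30.3, with no role given. Reads were 75-bp single-end and libraries were made with 1 of 2 kits, per the labels.

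Consensus regions, overlaps and sequence content were computed in Python 3.11.15 (pandas 2.3.3, numpy 2.4.6) with RefSeq GRCm38.p6, the assembly of mm10. Counts were tested with edgeR 4.0.16 (TMM, low counts filtered with filterByExpr, robust quasi-likelihood fits of all stages of a mark, with a term for the input arrangement in H3K27me3). P-values were adjusted over all TSS tested, and called means an adjusted p under 0.05. Alternatives were DESeq2 1.42.0 and its size factors, library totals, a trended scaling, no filter, a replicate block and leaving out each library. Splits by input arrangement, a crossed block, and calls held under all 4 scalings were added after the data were seen. The members and gene lists were chosen with earlier results of these data known. Genes were named as the 8 largest differences in each direction of H3K27me3, the 8 largest downward and 4 largest upward of H3K4me3 (P21 against P7, at least 10 CPM in the higher stage), the 8 widest, the 8 highest at P12, and up to 4 per list by H3K27me3 at P12.

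In simulated counts with 100 TSS changed by 1 and 100 by 2 on the log2 scale between P12 and P7, 17 and 88 were recovered for H3K4me3, with 4 false calls, and 45 and 98 for H3K27me3, with 6. The simulation gave all TSS the same spread and no effect of replicate or input arrangement. Changes were placed only in TSS at or above the median level. It therefore cannot give the rate of false calls in the real libraries. Same-numbered H3K27me3 libraries of P12 and P21 deviated together (correlations 0.472, 0.349, 0.648 and 0.612). Replicates 1 and 2 did so when crossed as well (0.366 and 0.508), so the numbers do not pair those 2. Same-numbered H3K27me3 libraries of P7 and P12 had lower correlations (0.318, 0.196, 0.295 and 0.0734). For H3K4me3 the highest correlation of same-numbered libraries was 0.0707. For 6 genes the H3K27me3 cells were blank.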

Additional observations from a re-analysis of the deposited data

Results flagged for a closer look

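Of 162 groups of 4 or 5 libraries looked at for the genes described, 5 held a library far from the others (Dixon's test at 95%), where chance gives about 1 in 20 groups. For H3K27me3 at P7, Ankrd63 had 1920 CPM in replicate 2, where the other 4 libraries had 1260 to 1420 CPM, Foxp2 had 39.4 CPM in replicate 3, where the others had 10.1 to 15 CPM, and Perm1 had 3.03 CPM in replicate 3, where the others had 20.3 to 27.2 CPM. For H3K27me3 at P21, Barhl1 had 53.0 CPM in replicate 5, where the others had 27.6 to 34.0 CPM, and Tex16 had 31.3 CPM in replicate 5, where the others had 13.8 to 17.5 CPM.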

How the results depend on the processing

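The number of member regions, 1153, was 431 to 1153 without 1 library (442 without P7 H3K4me3 replicate 1, 450 without replicate 3, 431 without P21 replicate 1), 115 with a peak in every library, 343 with H3K27me3 replicates 1 and 2 only, and 418 with no P21 H3K4me3 peak in any library. Leaving out 1 list also changed the rule for H3K4me3. At P12 and P21 a peak in the single list left was enough, and at P7 both lists left had to hold a peak. At P12 the percent with H3K4me3 was 15.9 to 30.9 without 1 library, and that with H3K27me3 was 64.9 to 93.5 without 1 library, 53.8 with a peak in every library and 63.7 without peaks that overlap the input. In P12 against P7, H3K4me3 was lower in 54 members with library totals, 36 with the trended scaling and 3 to 206 without 1 library, and higher in 18 with library totals, 1 with DESeq2 size factors or DESeq2, 2 with no filter, and 0 to 16 without 1 library. H3K27me3 was lower in 259 with library totals, 205 with the trended scaling and 256 with replicates 3 and later, and higher in 354, 337 and, with replicates 1 and 2 only, 51. Among members with no P21 H3K4me3 peak, 31 had lower and 0 higher H3K4me3, and 174 lower and 32 higher H3K27me3. In P21 against P12, H3K27me3 was lower in 120 members with DESeq2, 19 without the input arrangement term, 114 with replicates 1 and 2, 20 with later ones, 13 among those with no P21 H3K4me3 peak and 22 to 90 without 1 library. It was higher in 65 with library totals, 50 with the trended scaling, 7, 5, 2 and 6 in the settings of the previous sentence after DESeq2, and 8 to 34 without 1 library.

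With a replicate block, H3K4me3 at P12 was lower in 44 members and higher in 2. With the numbers of P12 crossed, since P12 and P21 replicates of H3K4me3 correlated at -0.117, it was lower in 69 and higher in 2. The block moved no other count of calls by over 1.5 times. In P21 against P12, H3K27me3 was lower in 51 and higher in 24 with the block.

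Of the genes whose calls were recomputed under every alternative, a part of those named, 43 had an H3K27me3 call in P12 against P7 and 24 kept it under every alternative, and 19 had an H3K4me3 call and 3 kept it (Cxcr4, Igfbpl1 and Tshz2). Log2 fold changes of H3K27me3 in P12 against P7 that turned from below to above 0 in these genes were 0.135 in Ankrd63, 0.388 in Flt1, 0.0793 in Hes1, 0.436 in Hmga2, 0.112 in Nkx6-2, 0.559 in Prdm6, 0.823 in Sall3, 0.497 in Shisa3 and 0.729 in Sox2 with the trended scaling, and 0.14 in Sall3 and 0.202 in Sox2 with library totals. The cause was not tested. Other named genes turned likewise, among them Car8 (0.232 with library totals), Cdkn2a (0.27) and Nes (0.146, both with the trended scaling). Of the 7 H3K4me3 libraries 4 held 431401 to 543138 counts, and the shallowest H3K27me3 libraries held 264093 and 310711.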
